A study of Mus musculus with 6 samples.

Results

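Splicing regulators of the neuronal RNA-binding families were followed in RNA of the mouse paraventricular nucleus of the hypothalamus (PVH): the RBFOX genes Rbfox1, Rbfox2 and Rbfox3, the NOVA genes Nova1 and Nova2, the neuronal ELAVL genes Elavl2, Elavl3 and Elavl4, and Celf4 and Ptbp2. They were taken by gene symbol, and all 10 were found among the 35148 genes of the table. The compared groups were 3 libraries from Ruvbl2fl/fl mice given AAV2-Cre-GFP into the PVH and 3 from Ruvbl2fl/fl mice given AAV2-GFP, both taken 8 weeks after the injection. The floxed Ruvbl2 allele and the GFP are thus shared by both groups, and Cre is the difference between them. The labels name neither the promoter that drives Cre nor the age of the animals, and the tissue also holds cells that the virus did not reach. Whether each library came from a different animal is not stated, so the p-values cover only the spread among these samples, which may be technical.

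RBFOX proteins bind the element UGCAUG near exons, NOVA proteins bind clustered YCAY elements, and both decide which exons of synaptic transcripts are kept. The neuronal ELAVL proteins (HuB, HuC and HuD) bind U-rich and AU-rich stretches and act on splicing and on mRNA stability, CELF4 binds mRNAs of mature neurons and affects their excitability, and PTBP2 holds back adult exons in young neurons after it has replaced PTBP1. Some of these proteins are used as markers of neuronal identity, such as RBFOX3, better known as the nuclear antigen NeuN. The table gives 1 count and 1 FPKM value (fragments scaled by gene length and library size, a level per length) for each gene, so exon use was not measured.

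Total counts ran from 41890769 to 54702785 per library. Ruvbl2, the targeted gene, stood at 9.53, 9.10 and 9.51 FPKM in the libraries labelled AAV2-Cre-GFP and at 9.90, 7.36 and 8.72 FPKM in those labelled AAV2-GFP, so the groups overlapped. Every direction below therefore compares libraries by their labels, called Cre-labelled and GFP-labelled. The 6 PVH neuron markers examined (Sim1, Oxt, Avp, Crh, Trh and Otp) were present. Per library of the Cre-labelled group they summed to 222, 249.6 and 521 CPM (counts scaled to a common library size). In the GFP-labelled group the sums were 286, 680.3 and 730.1 CPM. All 6 had negative log2 differences (Cre-labelled over GFP-labelled) with a median of -0.76, and only Crh had groups without overlap in FPKM. Cre-labelled libraries 2 and 3 and GFP-labelled library 1 stood apart through transcripts of other organs: the sum of 4 kidney genes was 394 and 422 CPM in these Cre-labelled libraries and at most 36.1 CPM elsewhere, and that of 4 testis genes 269 CPM in this GFP-labelled library and at most 1.36 CPM elsewhere. The gene model CT010467 took 17633, 13492 and 7301 CPM of Cre-labelled libraries 1 to 3, against 2219, 2201 and 2072 CPM in the GFP-labelled libraries. Lars2, at 414, 290.1 and 171 CPM in the Cre-labelled and at most 93.8 CPM in the GFP-labelled libraries, ran in the same order. So did Rn7sk, at 9.95, 6.96 and 3.24 CPM in the Cre-labelled and at most 2.31 CPM in the GFP-labelled libraries, and the mitochondrial ribosomal RNA mt-Rnr2 was at 2261 to 3151 CPM in the Cre-labelled and 1843 to 2124 CPM in the GFP-labelled libraries. The other mitochondrial ribosomal RNA, mt-Rnr1, overlapped, at 1287 to 1844 CPM in the Cre-labelled and 1109 to 1390 CPM in the GFP-labelled libraries. The 4 thalamic markers (Tcf7l2, Prkcd, Calb2 and Lef1), which bear on the dissection, all had negative differences with a median of -0.30, and summed to between 264 and 468 CPM in the Cre-labelled and between 401 and 565 CPM in the GFP-labelled libraries. The part of these transcripts in the differences of the regulators was not tested.

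Paralogs can share reads, so their sequences were compared first. Among GENCODE M21 transcripts, 0 words of 31 bases were shared between genes of the same family in the RBFOX, NOVA and ELAVL groups. The longest stretches that their coding sequences have in common are shown here to make plain how short they are beside the sequenced fragments, in lower case and 5′ to 3′.
Rbfox1 and Rbfox2, 29 bases: accgtggtagagggccgtaaaatcgaggt
Elavl2 and Elavl4, 23 bases: accatgacccagaaggagctgga
Rbfox1 and Rbfox3, 20 bases: caggatggattttatggtgc
Nova1 and Nova2, 15 bases: gcagcagcagcagcc
Stretches shared with models outside the families were larger for some of the genes. Of the words of Nova2, 30.99% also lie, in either orientation, in Gm26821, which was not analysed here. Whether the authors' counting used strand is not given in the sources used here, so how reads of this shared part were counted cannot be told. Elavl3 shares 3.28% of its words with Gm49318, and Nova1 shares 3.21% with Gm33869, a model inside it. By position, neither Nova2 nor Elavl3 overlapped another gene model of the deposited data. Gm33869 had 219 to 341 counts per library, 4.6% of the Nova1 total over the 6 libraries.

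All 10 regulators had a lower estimate in the Cre-labelled libraries, and 0 of them passed edgeR's quasi-likelihood test at a threshold of 0.05 on the adjusted p. By that test 0.00959% of the 20865 tested genes passed, 2 genes, both of them lower. The log2 differences ran from -0.48 for Nova2 to -0.06 for Elavl3, with a median of -0.17 against -0.01 over all tested genes, of which 51% had a negative difference, as had 57.2% of the 7627 genes whose level averaged 5 FPKM or more. At an unadjusted p under 0.05, 7 of the 10 were lower and 0 higher in edgeR, while 9.11% of all tested genes were lower and 8.11% higher at that level, and 16.8% of those 7627 genes were lower. With Cre-labelled library 1 left out, 0 of the 10 passed and 0.234% of the tested genes were called lower. In 5 of the 10 every Cre-labelled library was below every GFP-labelled library in FPKM, a pattern seen in 8.8% of all tested genes and in 14.1% of those 7627 genes. In CPM with TMM scaling 7 of the 10 were apart in this way, against 11.7% of all tested genes: Rbfox2 and Nova1 joined the 5, each by a narrow margin. DESeq2 on the same counts called 5 of the 10 lower, namely Rbfox1, Rbfox3, Nova2, Elavl2 and Celf4, where it called 4.05% of its tested genes lower. All 10 passed the filter on low counts. Because bulk tissue was sequenced, fewer neurons and less RNA per neuron cannot be told apart.

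**Figure D1:**
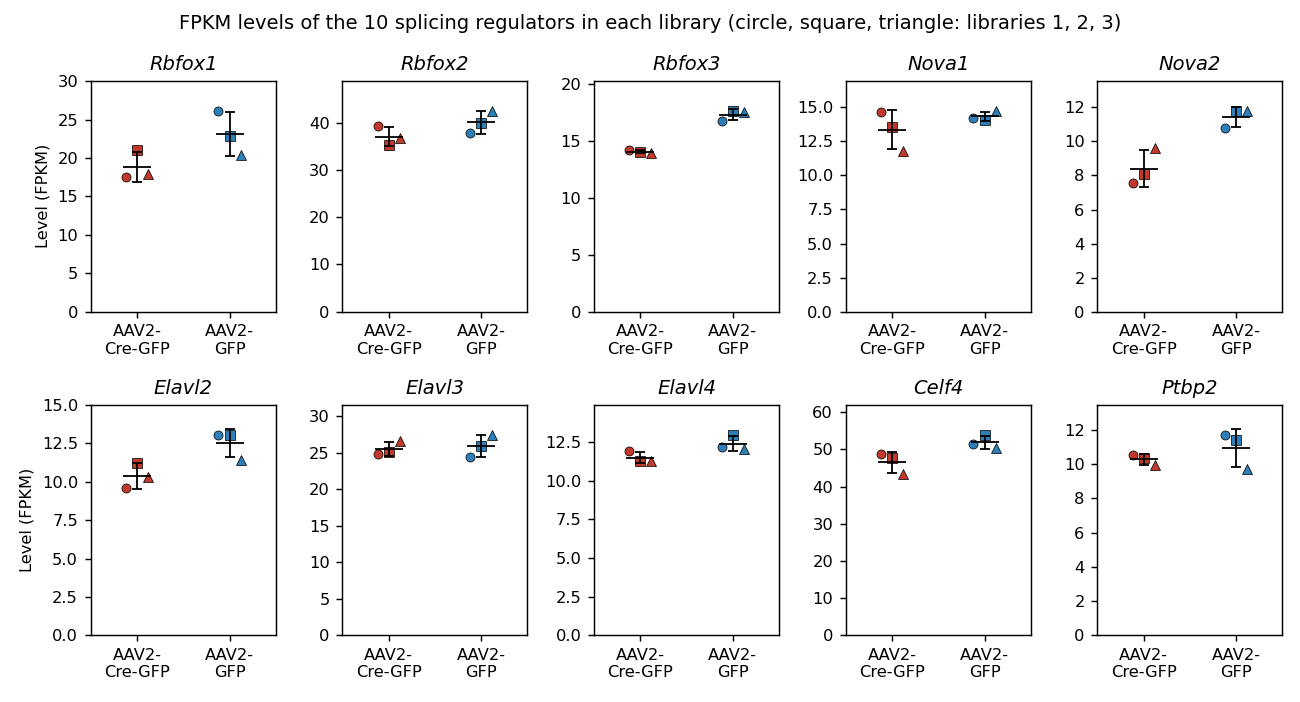
FPKM levels (vertical axes, each from 0) of the 10 regulators in the Cre-labelled libraries (left, red) and the GFP-labelled libraries (right, blue), where circle, square and triangle are libraries 1, 2 and 3 and the bar and whiskers are the mean ± SD (n = 3). The groups are apart for Rbfox3, Nova2, Elavl2, Elavl4 and Celf4 and overlap for the other 5.

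In order of level, Celf4 came first with a mean of 49.2 FPKM over the 6 libraries, followed by Rbfox2 with 38.6, Elavl3 with 25.7, Rbfox1 with 20.996, Rbfox3 with 15.7, Nova1 with 13.8, Elavl4 with 11.9, Elavl2 with 11.4, Ptbp2 with 10.6 and Nova2 with 9.92 FPKM. Every one of them lay above at least 79.0% of the tested genes. Celf4 was above Rbfox2, and Rbfox2 above Elavl3, in 6 of 6 libraries. Elavl4 was above Elavl2 in 4 of 6 libraries and Ptbp2 above Nova2 in 4 of 6, so these neighbours in the order were within the spread of each other. Within the Cre-labelled group the coefficient of variation ran from 0.873% for Rbfox3 to 12.9% for Nova2, and within the GFP-labelled group from 2.38% for Nova1 to 12.4% for Rbfox1.

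Rbfox3, whose product is the nuclear antigen NeuN of most mature neurons, gave the smallest p of the set. Its level was 14.2, 14.0 and 13.9 FPKM in the Cre-labelled libraries, against 16.7, 17.6 and 17.5 FPKM in the GFP-labelled libraries. The groups did not overlap, and within each the spread was small, with a coefficient of variation of 0.873% in the Cre-labelled and 2.78% in the GFP-labelled libraries. The log2 difference was -0.34 ± 0.050 (SE; 95% interval -0.45 to -0.22; edgeR adjusted p = 0.0705), which did not pass, whereas DESeq2 gave an adjusted p of 9.3e-06. The gene (ENSMUSG00000025576) occupies chromosome 11, bases 118489762 to 118911597, on the minus strand (GRCm38).

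Rbfox1, a regulator of neuronal excitability whose gene spans 1524.6 kb of chromosome 16, stood at 17.6, 21.1 and 17.9 FPKM in the Cre-labelled libraries, against 26.1, 22.9 and 20.4 FPKM in the GFP-labelled libraries. The highest Cre-labelled library was above the lowest GFP-labelled one, so the groups overlapped. The log2 difference of -0.33 ± 0.11 (SE; 95% interval -0.58 to -0.08) was about as large as that of Rbfox3, with a wider interval, and did not pass (edgeR adjusted p = 0.191). Rbfox2, which is also made outside neurons, stood at 39.3, 35.3 and 36.7 FPKM in the Cre-labelled and 37.8, 39.98 and 42.5 FPKM in the GFP-labelled libraries. The groups overlapped in FPKM, with a log2 difference of -0.15 ± 0.063 (SE; edgeR adjusted p = 0.275). In TMM-scaled CPM Rbfox2 stood at 359.5, 333 and 342 in the Cre-labelled libraries, just under 360.1, 381 and 408 in the GFP-labelled libraries. Summed over the 3 genes, RBFOX levels were 71.0, 70.4 and 68.5 FPKM in the Cre-labelled libraries, against 80.6, 80.5 and 80.4 FPKM in the GFP-labelled libraries. The sum thus varied less between GFP-labelled libraries than Rbfox1 or Rbfox2 alone, which were high in different libraries: Rbfox1 was highest in GFP-labelled library 1 and Rbfox2 in GFP-labelled library 3.

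Nova2, the NOVA protein most made in cortex and hippocampus, had the lowest log2 difference of the 10. Its level was 7.54, 8.06 and 9.62 FPKM in the Cre-labelled libraries, against 10.8, 11.8 and 11.8 FPKM in the GFP-labelled libraries. The groups did not overlap, and Cre-labelled library 3 was nearest to the GFP-labelled ones. The log2 difference was -0.48 ± 0.098 (SE; 95% interval -0.71 to -0.25; edgeR adjusted p = 0.091) and did not pass, with a DESeq2 adjusted p of 0.000322. Among the Cre-labelled libraries Nova2 was lowest in library 1 and highest in library 3, while CT010467 ran the other way, and its part in the result was not tested. Nova1, the NOVA protein most made in the hypothalamus, midbrain and spinal cord, stood at 14.6, 13.6 and 11.8 FPKM in the Cre-labelled libraries, against 14.2, 14.1 and 14.7 FPKM in the GFP-labelled libraries. These values overlapped, and the log2 difference was -0.14 ± 0.078 (SE; 95% interval -0.32 to 0.04; edgeR adjusted p = 0.398). It was -0.05 without Cre-labelled library 3 and -0.03 without the 3 libraries that held transcripts of other organs. In TMM-scaled CPM Nova1 stood at 144.04, 138 and 118 in the Cre-labelled libraries, against 145.4, 144.1 and 152 in the GFP-labelled libraries, a very narrow gap. In Cre-labelled library 1 Nova1 was near the top of its range while Nova2 was at its lowest. Nova1 (ENSMUSG00000021047) occupies chromosome 12, bases 46694517 to 46818929, minus strand, and Nova2 (ENSMUSG00000030411) chromosome 7, bases 18925888 to 18965319, plus strand (GRCm38).

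Of the neuronal ELAVL genes, Elavl2 (HuB) stood at 9.57, 11.2 and 10.3 FPKM in the Cre-labelled libraries, against 13.1, 13.0 and 11.4 FPKM in the GFP-labelled libraries. The groups were apart by a narrow margin, with Cre-labelled library 2 just under GFP-labelled library 3. The log2 difference was -0.31 ± 0.084 (SE; edgeR adjusted p = 0.145). Elavl4 (HuD), which stabilises mRNAs of growing axons, stood at 11.9, 11.3 and 11.3 FPKM in the Cre-labelled and 12.2, 13.0 and 12.1 FPKM in the GFP-labelled libraries. Here too the groups were apart by little, and the log2 difference was -0.15 ± 0.056 (SE; edgeR adjusted p = 0.243). Elavl3 (HuC), the most abundant of the family here, stood at 24.9, 25.05 and 26.6 FPKM in the Cre-labelled libraries, against 24.5, 25.9 and 27.5 FPKM in the GFP-labelled libraries. Its groups overlapped throughout, with a log2 difference of -0.06 ± 0.063 (SE; 95% interval -0.21 to 0.08; edgeR adjusted p = 0.661). Elavl2 (ENSMUSG00000008489) and Elavl4 (ENSMUSG00000028546) are both on chromosome 4, minus strand, at bases 91250763 to 91400785 and 110203722 to 110351909 (GRCm38).

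Celf4, a regulator of sodium channel mRNAs whose loss causes seizures in mice, was the highest of the set. It stood at 48.7, 47.6 and 43.4 FPKM in the Cre-labelled libraries, against 51.4, 53.9 and 50.4 FPKM in the GFP-labelled libraries. The groups did not overlap, the log2 difference was -0.19 ± 0.060 (SE; 95% interval -0.33 to -0.06), and the call was absent in edgeR (adjusted p = 0.172) and present in DESeq2 (adjusted p = 0.0163). Ptbp2, the neuronal polypyrimidine tract protein, stood at 10.5, 10.4 and 9.93 FPKM in the Cre-labelled libraries, against 11.7, 11.4 and 9.69 FPKM in the GFP-labelled libraries. GFP-labelled library 3 was the lowest of the 6, so the groups overlapped, and the log2 difference was -0.13 ± 0.076 (SE; edgeR adjusted p = 0.438). Two-sided exact permutation tests of FPKM gave p = 0.1, the smallest that 3 libraries against 3 allow, for Rbfox3, Nova2, Elavl2, Elavl4 and Celf4, and p from 0.2 to 0.7 for the other 5. In TMM-scaled CPM the same exact permutation test also gave p = 0.1 for Rbfox2 and Nova1. Dropping each library in turn gave edgeR log2 differences of -0.20 to -0.08 for Ptbp2 and -0.11 to -0.02 for Elavl3.

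**Figure D2:**
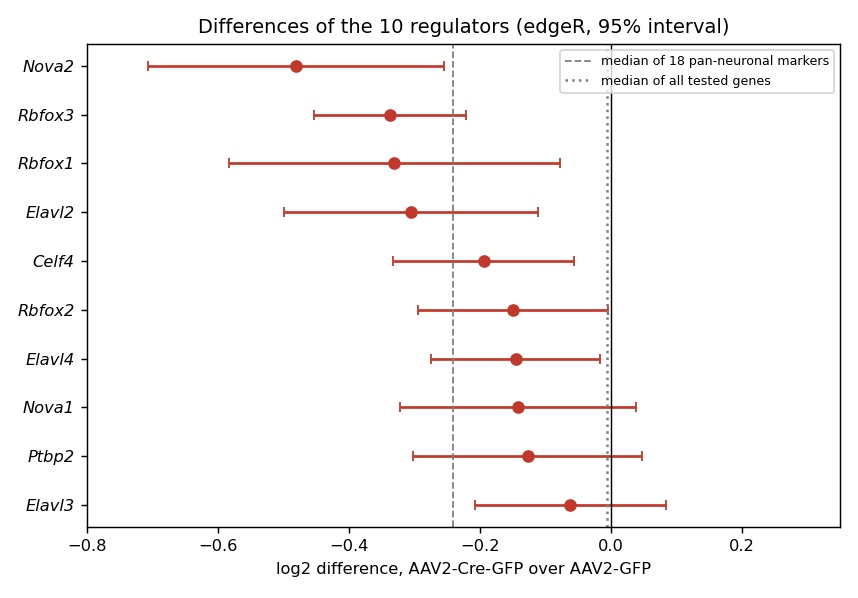
Log2 differences between Cre-labelled and GFP-labelled libraries (horizontal axis) of the 10 regulators with 95% intervals from edgeR; the dashed line is the median of 18 pan-neuronal markers and the dotted line the median of all tested genes. All 10 estimates lie below 0, from -0.48 for Nova2 to -0.06 for Elavl3, and the intervals of Nova1, Ptbp2 and Elavl3 cross 0.

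Markers of neurons were also examined. Of 18 pan-neuronal genes, such as Map2, Syp and Nefh, all 18 had a negative log2 difference, 0 passed in edgeR and the median was -0.24. At an unadjusted p under 0.05, 12 of the 18 were lower and 0 higher in edgeR, against 9.11% of all tested genes lower. Every Cre-labelled library was below every GFP-labelled one in 10 of the 18 in FPKM and in 11 in TMM-scaled CPM. Those patterns were seen in 8.8% and 11.7% of all tested genes. DESeq2 called 9 of the 18 lower, against 4.05% of its tested genes. Lower levels were thus not particular to the 10 regulators. Together the 18 genes took 9546, 10366 and 10259 CPM of the Cre-labelled libraries, against 12099, 12212 and 12244 CPM in the GFP-labelled libraries. None of the 18 was at 0. The 3 markers of glutamatergic neurons (Slc17a6, Slc17a7 and Slc17a8) summed to between 129 and 233 CPM in the Cre-labelled and between 202 and 262 CPM in the GFP-labelled libraries, and the 3 of GABAergic neurons (Gad1, Gad2 and Slc32a1) to between 1133 and 1496 CPM in the Cre-labelled and between 1227 and 1376 CPM in the GFP-labelled libraries. Of 8 astrocyte markers 7 had a positive difference and 1 a negative, with sums of 4206 to 4582 CPM in the Cre-labelled and 4165 to 4269.8 CPM in the GFP-labelled libraries. The 3 ependymal markers (Foxj1, Ccdc153 and Tmem212) summed to between 99.9 and 134 CPM in the Cre-labelled and between 71.4 and 78.7 CPM in the GFP-labelled libraries. Other non-neuronal lists were mixed. Of 8 oligodendrocyte markers 4 were negative and 4 positive (median log2 difference 0.006), and of 8 microglial markers 5 and 3 (median -0.04). The 2 markers of oligodendrocyte precursors were negative (median -0.15). Of 4 endothelial markers 2 were negative and 2 positive (median 0.01), and of 3 mural markers 1 and 2 (median 0.25). What part these cell types have in the differences of the regulators was not tested.

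Each regulator was therefore also set against the mean log2 FPKM of the 18 neuronal markers in the same library. On this scale 5 of the 10, Rbfox2, Nova1, Elavl4, Celf4 and Ptbp2, had positive differences between 0.07 and 0.15 with overlapping groups. Without Cre-labelled library 1 these were 0.04 for Rbfox2, 0.014 for Nova1, 0.06 for Elavl4, 0.0028 for Celf4 and 0.09 for Ptbp2. Elavl3 was at a ratio of -1.74, -1.86 and -1.74 in log2 in the Cre-labelled libraries, against -2.07, -1.99 and -1.90 in the GFP-labelled libraries. Its groups did not overlap, and the difference was 0.21 (two-sided exact permutation p = 0.1, adjusted over the 10 genes p = 0.6). Nova2 was at -3.46, -3.50 and -3.20 in the Cre-labelled libraries, against -3.25, -3.13 and -3.12 in the GFP-labelled libraries, a difference of -0.22 (exact permutation p = 0.2, adjusted p = 0.6). Cre-labelled library 3 lay above GFP-labelled library 1, so the Nova2 groups overlapped once the neuronal markers were taken as the base. The other 3, Rbfox1, Rbfox3 and Elavl2, differed by -0.06, -0.07 and -0.04 with overlapping groups and exact permutation p from 0.3 to 0.7.

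**Figure D3:**
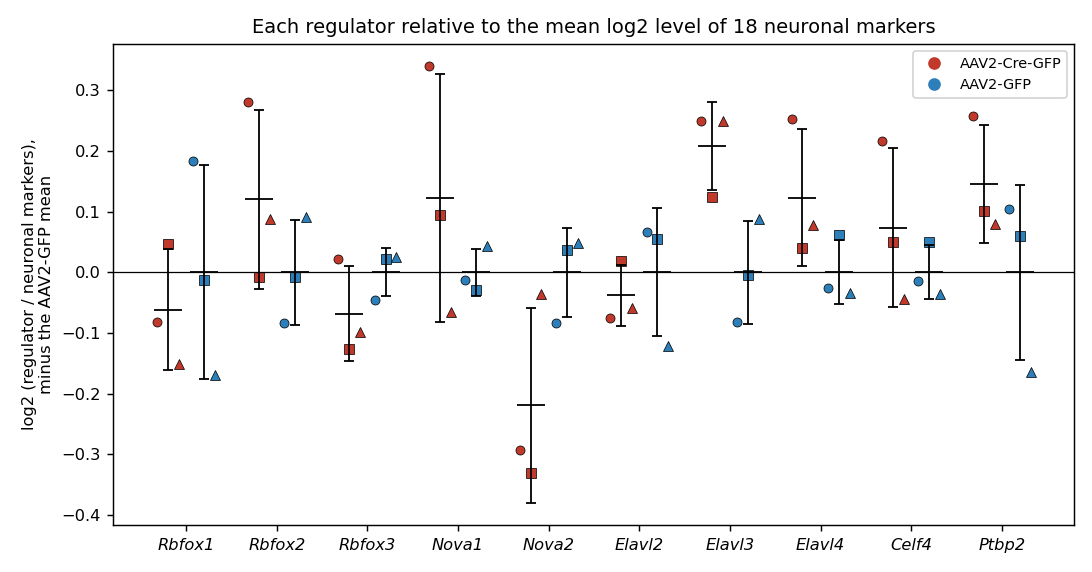
Log2 ratio of each regulator to the mean log2 FPKM of 18 neuronal markers in the same library (vertical axis, with the GFP-labelled mean set to 0), for Cre-labelled (left of each pair, red) and GFP-labelled (right, blue) libraries with mean ± SD (n = 3). Elavl3 is the gene whose groups are apart, with Cre-labelled libraries higher, and Nova2 has the lowest Cre-labelled mean, -0.22.

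Ratios between related genes inside a library do not depend on how libraries are scaled, and 9 were compared. The ratio of Ptbp2 to Ptbp1, the form of dividing and non-neuronal cells, was 0.854, 0.78 and 0.707 in the Cre-labelled libraries, against 1.04, 0.98 and 0.899 in the GFP-labelled libraries. Every Cre-labelled library was below every GFP-labelled one, and the log2 ratio differed by -0.32 (two-sided exact permutation p = 0.1, adjusted over the 9 ratios p = 0.36). Ptbp1 itself stood at 12.3, 13.3 and 14.1 FPKM in the Cre-labelled and 11.3, 11.6 and 10.8 FPKM in the GFP-labelled libraries, with a log2 difference of 0.20 ± 0.072 (SE; edgeR adjusted p = 0.223). The ratio of Rbfox2 to Rbfox3 was 2.77, 2.51 and 2.64 in the Cre-labelled libraries, against 2.26, 2.27 and 2.42 in the GFP-labelled libraries. These groups were apart too, with Cre-labelled libraries higher by 0.19 in log2 (exact permutation p = 0.1, adjusted p = 0.36). The Nova1 to Nova2 ratio was 1.94, 1.68 and 1.23 in the Cre-labelled libraries, against 1.32, 1.20 and 1.25 in the GFP-labelled libraries. Here Cre-labelled libraries 1 and 2 were above all others and library 3 lay among the GFP-labelled ones, for a log2 difference of 0.34 (exact permutation p = 0.3, adjusted p = 0.386), with values of 0.20 and 0.53 when Cre-labelled library 1 or, in turn, library 3 was dropped. The ratio of Rbfox1 to Rbfox3 differed by 0.01 in log2, against an SD of 0.15 in the Cre-labelled and 0.21 in the GFP-labelled libraries (exact permutation p = 1.0). The remaining 5 ratios, 3 of them among the ELAVL genes, had overlapping groups with log2 differences from -0.25 to 0.16, and from -0.35 to 0.23 with 1 library left out.

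**Figure D4:**
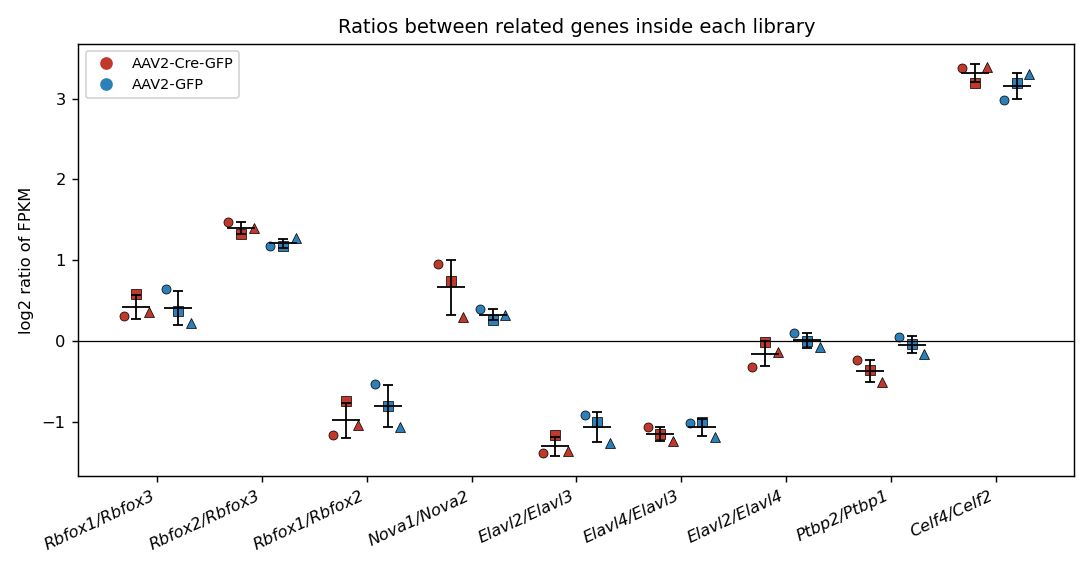
Log2 ratios of FPKM between related genes inside each library (vertical axis) for Cre-labelled (left of each pair, red) and GFP-labelled (right, blue) libraries, with mean ± SD (n = 3). The groups are apart for Rbfox2/Rbfox3, where the Cre-labelled mean is higher by 0.19, and for Ptbp2/Ptbp1, where it is lower by a difference of -0.32.

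Beyond these 10 genes, 53 other splicing regulators were examined, of which 20 had negative and 33 positive differences, 0 passed in edgeR, and the median was 0.04. At an unadjusted p under 0.05 there were 7 lower and 10 higher. DESeq2 called 3 lower and 6 higher, against 4.05% lower and 2.69% higher over its tested genes. The 8 ubiquitous or neuronal paralogs of the ELAVL, CELF and PTBP families had a median of 0.04, with 3 negative and 5 positive. Celf2, the CELF paralog widely made in brain, stood at 4.69, 5.22 and 4.13 FPKM in the Cre-labelled libraries, against 6.48, 5.91 and 5.12 FPKM in the GFP-labelled libraries. The Celf2 values overlapped, with a log2 difference of -0.35 ± 0.11 (SE; edgeR adjusted p = 0.175). Among 19 other regulators of neural splicing 12 were negative and 7 positive. Khdrbs1, which encodes the STAR protein Sam68, had the smallest p of that list, at 18.9, 17.3 and 16.9 FPKM in the Cre-labelled and 20.3, 20.2 and 20.8 FPKM in the GFP-labelled libraries (log2 difference -0.25 ± 0.055, SE; edgeR adjusted p = 0.103). Its groups did not overlap. Msi1, the neural progenitor protein Musashi-1, differed by -0.26 ± 0.075 in log2 (SE; edgeR adjusted p = 0.159).

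Core splicing factors lay on the other side. Of 18 SR proteins and core factors 16 had positive differences, 2 negative, and the median was 0.10. In 9 of the 18 every Cre-labelled library was above every GFP-labelled one in FPKM, a pattern seen in 14.1% of all tested genes. In TMM-scaled CPM this held for 6 of the 18 and 11.1% of all tested genes. The share among genes averaging 5 FPKM or more was not computed for this direction. The mean over the 18 of log2 CPM, centred per gene, was 0.12, 0.06 and -0.003 in Cre-labelled libraries 1 to 3. In GFP-labelled libraries 1 to 3 it was -0.08, -0.06 and -0.04. That mean thus fell from Cre-labelled library 1 to library 3, as CT010467 did. Tra2b, an SR-like activator of exons, stood at 9.88, 8.68 and 8.26 FPKM in the Cre-labelled libraries, against 6.92, 7.05 and 7.08 FPKM in the GFP-labelled libraries. Its groups were apart, with a log2 difference of 0.31 ± 0.069 (SE; edgeR adjusted p = 0.103; DESeq2 adjusted p = 0.00478). Srsf10, an SR protein that becomes a repressor when dephosphorylated, differed by 0.31 ± 0.075 (SE; edgeR adjusted p = 0.117). Both were highest in Cre-labelled library 1 and lowest of the Cre-labelled libraries in library 3, the order of CT010467. Among 8 partners of RBFOX in the large assembly of splicing regulators (LASR), 5 were positive and 3 negative. Hnrnpm, a LASR core protein, stood at 15.6, 13.4 and 14.2 FPKM in the Cre-labelled libraries, against 11.8, 11.7 and 11.9 FPKM in the GFP-labelled libraries, again with no overlap (log2 difference 0.24 ± 0.060, SE; edgeR adjusted p = 0.119). Hnrnpc and Hnrnph1 differed by 0.25 ± 0.070 and 0.17 ± 0.055 (SE; edgeR adjusted p = 0.15 and 0.179). Hnrnpa3, another protein of the hnRNP class, was the gene with the smallest p of the whole table, at 1.01 ± 0.198 FPKM in the Cre-labelled and 25.1 ± 1.32 FPKM in the GFP-labelled libraries (SD, n = 3 each; edgeR adjusted p = 1.73e-05). Whether near-identical copies of these hnRNP genes share reads was not examined, so their counts are uncertain.

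**Figure D5:**
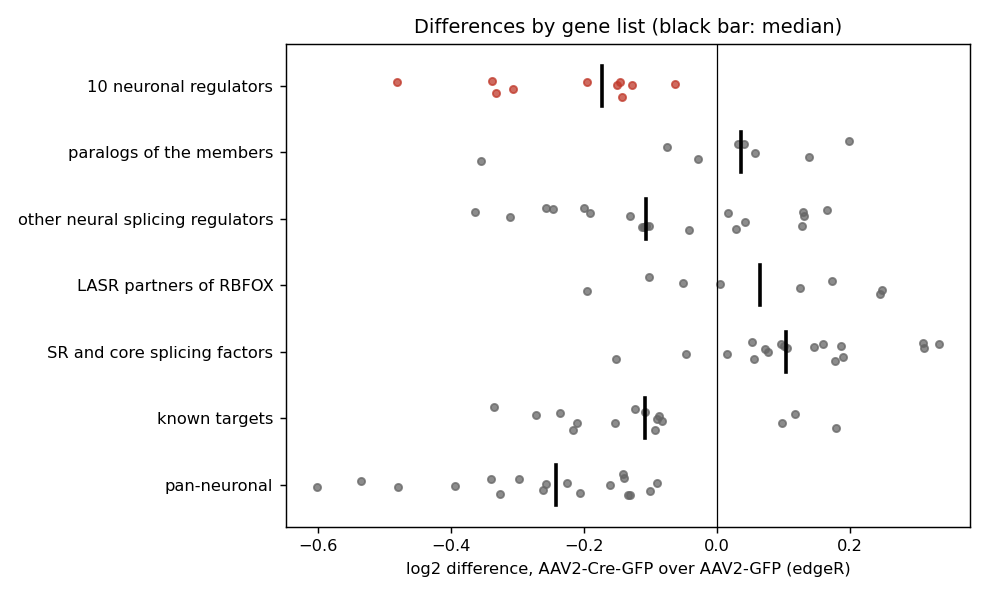
Log2 differences between Cre-labelled and GFP-labelled libraries (horizontal axis, edgeR) by gene list, with 1 point per gene and a black bar at the median; vertical scatter within a list has no meaning. The 10 neuronal regulators all lie below 0, while 16 of 18 SR and core factors lie above it.

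Transcripts that the regulators are known to bind or splice were followed at the gene level. Of 15 such transcripts 12 had negative and 3 positive differences, 0 passed in edgeR, and the median was -0.11. Negative differences were also found in all 18 pan-neuronal genes, with a median of -0.24, and in 57.2% of genes averaging 5 FPKM or more. In 6 of the 15 every Cre-labelled library was below every GFP-labelled one in FPKM, as in 8.8% of all tested genes and 14.1% of the 7627 genes averaging 5 FPKM or more. Ank3, which encodes the axon initial segment protein ankyrin-G and is a target of ELAVL3, stood at 11.9, 10.8 and 11.9 FPKM in the Cre-labelled libraries, against 12.4, 14.4 and 14.0 FPKM in the GFP-labelled libraries. The groups did not overlap, with a log2 difference of -0.27 ± 0.070 (SE; edgeR adjusted p = 0.13; DESeq2 adjusted p = 0.00286). Scn8a, a sodium channel transcript bound by CELF4 and RBFOX, differed by -0.22 ± 0.070 (SE; edgeR adjusted p = 0.186). Dlg4, the PSD-95 transcript that PTBP1 and PTBP2 hold down through exon skipping, stood at 31.1, 30.2 and 32.0 FPKM in the Cre-labelled libraries, against 33.2, 33.8 and 33.9 FPKM in the GFP-labelled libraries. It too was lower without overlap, by a log2 difference of -0.15 ± 0.048 (SE; edgeR adjusted p = 0.18). Gap43, which ELAVL4 stabilises, is also among the neuronal markers and differed by -0.09 ± 0.072 (SE; edgeR adjusted p = 0.573).

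Genes with the most similar library profiles were sought among 7621 others averaging 5 FPKM or more, by the root mean square difference of centred log2 CPM over the 6 libraries. Every profile rests on these 6 libraries, so anything that sets 1 library apart enters all of them. Nearest to Rbfox3 were St8sia1, a ganglioside sialyltransferase, at a distance of 0.0095 and Ywhag, a 14-3-3 protein, at 0.02, beside a spread of 0.17 for Rbfox3 itself. St8sia1 stood at 8.58, 8.39 and 8.36 FPKM in the Cre-labelled libraries, against 10.2, 10.6 and 10.6 FPKM in the GFP-labelled libraries. This is the same sequence of high and low libraries as for Rbfox3. Nearest to Rbfox1 were Fgf12 and Ncdn, both at 0.04 beside a spread of 0.22. Nearest to Elavl2 were Reep1 and Syt4, both at 0.03 beside 0.18. For Nova2, Nol3 lay at 0.05 beside a spread of 0.27. Nearest to Celf4 were Larp4b and Arfgef1, to Elavl4 Spag9 and Paqr7, and to Rbfox2 Srgap3 and Tceal6, at distances from 0.0097 to 0.02. Nearest to Nova1 were Ap5s1 and Rnmt, to Ptbp2 Nek1 and Sorcs1, and to Elavl3 Cuedc2 and Mapk8ip3, at 0.02 or 0.03. Within the 10 regulators the most alike pair was Celf4 and Elavl4, at 0.05.

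Promoter sequences were read from RefSeq (GRCm38.p6), which gave 17 start sites for 8 of the 10 genes. Shown, from 250 bases before to 50 bases after the start, are the gene with the smallest p (Rbfox3), the one with the lowest log2 difference (Nova2) and the one with the difference nearest to 0 (Elavl3), with GC boxes (GGGCGG or, on the other strand, CCGCCC) in capitals.
Rbfox3, chr11:118760992-118761291, minus strand: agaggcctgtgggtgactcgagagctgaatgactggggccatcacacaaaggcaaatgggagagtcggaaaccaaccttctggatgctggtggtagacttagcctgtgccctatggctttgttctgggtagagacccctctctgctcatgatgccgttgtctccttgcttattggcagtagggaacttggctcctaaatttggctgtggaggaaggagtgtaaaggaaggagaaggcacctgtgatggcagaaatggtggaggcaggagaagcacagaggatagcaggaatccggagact
Nova2, chr7:18925638-18925937, plus strand: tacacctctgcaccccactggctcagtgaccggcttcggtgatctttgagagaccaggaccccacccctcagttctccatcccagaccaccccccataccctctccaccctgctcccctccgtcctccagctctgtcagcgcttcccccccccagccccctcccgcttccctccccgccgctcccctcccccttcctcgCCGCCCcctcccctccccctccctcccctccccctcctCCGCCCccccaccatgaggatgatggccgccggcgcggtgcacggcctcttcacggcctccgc
Elavl3, chr9:22051974-22052273, minus strand: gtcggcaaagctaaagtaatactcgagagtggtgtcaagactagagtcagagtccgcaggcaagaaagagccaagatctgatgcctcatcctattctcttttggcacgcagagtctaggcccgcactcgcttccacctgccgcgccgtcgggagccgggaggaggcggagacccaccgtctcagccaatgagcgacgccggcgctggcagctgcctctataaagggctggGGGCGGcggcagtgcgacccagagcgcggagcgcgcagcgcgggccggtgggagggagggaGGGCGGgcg
The Rbfox3 window lies inside the gene model, whose annotated start is further upstream. Its GC content was 53.0% with 0 GC boxes, that of Nova2 71.3% with 2 and that of Elavl3 65.3% with 2, against a median GC content of 52.7% over 32851 promoters. With both strands searched, 4 of the 8 genes (Nova2, Elavl2, Elavl3 and Ptbp2) had a GC box at 1 or more of their start sites. The motif TATAAA was found at 1 of the 8, Elavl3. Counted per single start site, 35.7% of all promoters held a GC box and 13.6% TATAAA. These shares are not on the same footing as the counts by gene, since a gene can have several start sites, as Elavl2 with 6.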

How the data were processed

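The table holds RNA-seq of poly(A) RNA of PVH tissue from 6 mouse libraries, prepared with dUTP strand marking and adapters with molecular identifiers, per the labels' protocols. cutadapt, HISAT2 and StringTie and the build mm9 are named in the submitters' processing notes; the sources used here do not give their versions or roles, or whether counting used strand or identifiers. Of 35024 gene identifiers shared with GENCODE M21 (GRCm38), 91.4% had the same start and end in the deposited table, so coordinates are given as GRCm38. The deposited counts are whole numbers per gene with no normalization, and the deposited FPKM values are scaled by gene length and library total by the authors.

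Genes were kept with filterByExpr (minimum count 10), which left 20865, and tested with edgeR 4.0.16 in R 4.3.3 (quasi-likelihood test, TMM factors, no covariates, two-sided) with Benjamini-Hochberg adjustment over all tested genes and a threshold of 0.05. Standard errors come from the F statistic, and intervals are 95%. Single values were compared by exact permutation over the 20 arrangements of the libraries. The common biological coefficient of variation was 27.1%. Every pair of libraries differed by more than sampling noise (chi-square per gene 11.4 or more). Averaged over genes, the spread between libraries thus exceeded counting error, which need not hold for each single gene. Alternatives were DESeq2 1.42.0, limma 3.58.1 on log2(FPKM + 0.5, 0.1 or 1) with and without a minimum mean of 1 FPKM, edgeR with RLE factors or library totals, without the filter, with robust moderation, with a replicate block, and with libraries left out. The tests were also run on simulated data with changes larger than those of the regulators, which does not show how they perform on changes this small.

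The 10 genes and all lists were chosen with earlier results of these data known. Named are the 10 genes, Ruvbl2, Hnrnpa3, Ptbp1 and Celf2, the 8 other regulators and 4 targets with the smallest edgeR p, and the 2 genes with the most similar profile to each of the 10, except that 1 target and 1 gene of similar profile are not reported here; Gap43, CT010467 and the cell type markers are named beside them, chosen after their values were seen.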

Additional observations from a re-analysis of the deposited data

How the results depend on the processing

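The log2 differences of all 10 regulators stayed negative in each of the 17 alternatives. None of the 10 was called with 1 library left out (0 in each case), with the replicate block (0), under RLE factors, library totals, no filter, the robust fit or limma. DESeq2 called 5 of the 10, 9 of the 53 other regulators, 3 of the 15 targets and 1279 genes in all. Over its tested genes it called 4.05% lower and 2.69% higher. Leaving out the 3 libraries with transcripts of other organs sets 1 Cre-labelled library, library 1, against 2 GFP-labelled ones, the lone one being assumed to vary like the others. Cre-labelled library 1 had the highest CT010467 and Lars2 of all libraries (17633 and 414 CPM). It also had the lowest sum of the 18 neuronal markers (9546 CPM). The calls in that fit rest on this 1 library, so no conclusion is drawn from them. In that fit edgeR called 4 of the 10 (Rbfox1, Rbfox3, Nova2 and Elavl2), 10 of the other regulators, 4 of the targets and 1059 genes. The count of all called genes was 9 with RLE factors, 1 with library totals, 1 with no filter, 22 with the robust fit, 15 with limma on log2(FPKM + 0.1) and 1 with limma and no filter, and it ran from 1 to 296 with 1 library left out (296 without Cre-labelled library 1). The median of the 10 was -0.13 with library totals, -0.13 with limma at each pseudocount and without its filter (-0.133, -0.135, -0.132 and -0.133), and -0.21 to -0.13 with 1 library left out. The adjusted p of Rbfox3 ran from 0.051 to 0.301 and that of Nova2 from 0.099 to 0.301 with 1 library left out (edgeR).

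The log2 ratio of Rbfox1 to Rbfox3 differed by 0.0065 and turned negative in 3 of 6 cases with 1 library left out (-0.091 to 0.12), and Rbfox1 over neuronal markers differed by -0.06 and turned positive without GFP-labelled library 1 (-0.15 to 0.030). The cause was not tested. Same-numbered libraries did not deviate together (correlations of their deviations -0.044, 0.012 and -0.022). The labels give them only a number in common, and these correlations cannot show whether they also shared a litter, day or batch. With the replicate block the median of the 10 was -0.17 and 3 genes were called in all. With 3 libraries a group, permutation tests cannot pass 0.05.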

Other observations

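The make-up of each family by level can be read from the shares of its summed FPKM. Rbfox2 made 55.3%, 50.1% and 53.6% of the RBFOX level in the Cre-labelled libraries and 46.8%, 49.7% and 52.8% in the GFP-labelled libraries. Rbfox3 made 19.9% to 20.3% in the Cre-labelled libraries, against 20.8% to 21.9% in the GFP-labelled libraries, without overlap. Nova1 made 61.3% ± 5.60 of the NOVA level in the Cre-labelled and 55.6% ± 1.17 in the GFP-labelled libraries (SD, n = 3 each). Elavl3 was the largest part of the neuronal ELAVL level, with 53.8% ± 1.24 in the Cre-labelled and 51.0% ± 2.50 in the GFP-labelled libraries (SD, n = 3 each). Summed over the 10 genes, the level was 199, 198 and 191 FPKM in the Cre-labelled libraries, against 218, 224 and 218 FPKM in the GFP-labelled libraries.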
